A study of Homo sapiens with 2 samples.

Results

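MALAT1-rich barcodes are droplets of a single-cell library in which an unusually large part of the captured RNA is MALAT1, a long noncoding RNA that stays in the nucleus. They were chosen from 2 libraries by a rule on measured values: a barcode had to hold at least 10000 unique molecular identifiers (UMIs, counted RNA molecules), at most 20% of them from mitochondrially encoded genes, and at least 300 MALAT1 UMIs per 10000. The rule found 159 of the 1474 barcodes that passed the first 2 limits in the untreated library (10.8%, exact binomial 95% interval 9.25 to 12.5) and 155 of 1009 in the cytokine-treated library (15.4%, 13.2 to 17.7). Those libraries listed 3257 and 1641 barcodes in all. The share was 4.57 percentage points higher in the treated library (Newcombe 95% interval 1.89 to 7.36). The direction was not the same in all barcodes: among those rich in epithelial markers the shares were 9.76% and 18.9%, and among those rich in mesenchymal markers they were 11.9% and 7.81%, by a marker score described below.

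Both libraries came from colon organoids dissociated with trypsin. The organoids had been differentiated from 1383D6, a human line of induced pluripotent stem cells that is in established use. The untreated culture (CNT) received no cytokine. The treated culture (3CK) was kept for 8 days with TNF-α, IL-1β and IFN-γ, in a study that set out to model ulcerative colitis. About 8300 cells were loaded per library for 10x Genomics 3′ capture, and each group is 1 library, so no test across replicates was possible and every interval covers counting error only. Barcodes of 1 library share its culture, dissociation and sequencing and are not replicates of a condition. No cell barcode occurred in both libraries.

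MALAT1 and NEAT1 are transcribed from neighbouring genes and are retained in the nucleus, MALAT1 in nuclear speckles and NEAT1 as the scaffold of paraspeckles. Messenger RNAs for ribosomal proteins and metabolic enzymes are mature, stable and held mainly in the cytoplasm, and mitochondrially encoded RNAs are made and kept inside mitochondria. Unspliced transcripts of long genes are found in the nucleus, where most of their length is intron. IFN-γ signals through JAK kinases to transcription factors that raise a set of genes for chemokines, antigen presentation and guanylate-binding proteins, while TNF-α and IL-1β act mainly through NF-κB.

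The MALAT1-rich barcodes held 6250274 UMIs in CNT and 8110114 in 3CK, which was 6.19% and 8.78% of the UMIs of all barcodes within the limits, and 51.0% and 62.3% of their MALAT1 UMIs. MALAT1 itself, which chose them, ran from 300.5 to 2466 UMIs per 10000 with a median of 526 in CNT, and from 300.5 to 3675 with a median of 518 in 3CK. The remaining barcodes had medians of 5.10 and 3.28. Depth was lower in the chosen barcodes: their median was 33087 UMIs in CNT and 47397 in 3CK, against 66545 and 96133 in the remaining barcodes. At a fixed 10000 UMIs they nevertheless showed more genes, with medians of 4026 against 3228 in CNT and 4086 against 3225.5 in 3CK. Of the barcodes with the highest doublet scores that lay within the limits on UMIs and mitochondrial share, 0 in CNT and 1 in 3CK were MALAT1-rich, and 26 and 16 were not.

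Messenger RNA of cytosolic ribosomal proteins was scarce in them. It made up a median of 1.39% of UMIs in CNT (lowest 0.386%, highest 26.8%) against 16.4% in the remaining barcodes, and 1.32% in 3CK (0.234% to 17.6%) against 13.9%. In number, the median MALAT1-rich barcode held 435 such UMIs in CNT and 545 in 3CK, against 10907 and 12879.5. A ribosomal-protein share under 2% was found in 98 of 159 MALAT1-rich barcodes in CNT (61.6%) and 99 of 155 in 3CK (63.9%), and in 47 of 1315 (3.57%) and 25 of 854 (2.93%) of the remaining barcodes. The upper ends of both ranges overlap the bulk of the remaining barcodes, so the group was not uniform.

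Mitochondrially encoded RNA, by contrast, was higher. Its median share was 7.49% in the CNT group (quartiles 3.66% and 13.1%) against 2.83% in the remaining barcodes, and 5.46% in the 3CK group (2.43% and 9.57%) against 2.39%. The number of such UMIs was also higher, 2434 against 1814 in CNT and 2707 against 2200 in 3CK. A share of at least 5% was seen in 105 CNT barcodes of the group (66.0%) and 83 in 3CK (53.5%), against 18.5% and 15.8% of the remaining barcodes. A share under 1% was seen in 16 and 22, and of these 11 and 19 also had under 2% ribosomal-protein UMIs. The working name "nucleus-like" thus matched the low ribosomal-protein share but not the mitochondrial share, and the barcodes are called here by their rule.

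**Figure D1:**
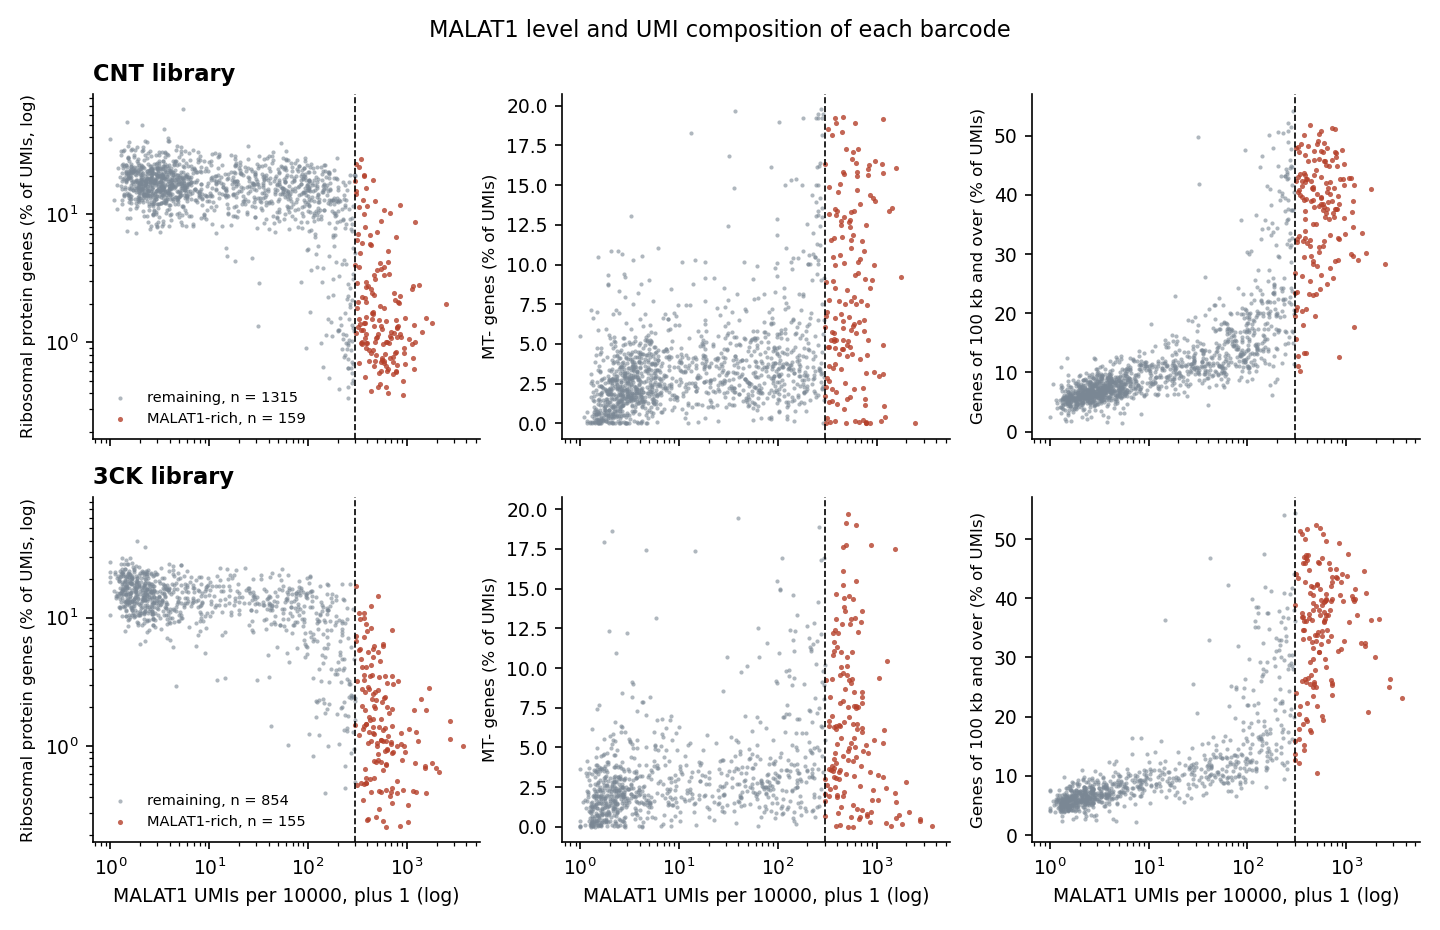
Each point is 1 barcode with at least 10000 UMIs and at most 20% mitochondrial UMIs; the horizontal axis is MALAT1 UMIs per 10000 plus 1 on a log scale, and the vertical axes are the percent of UMIs from ribosomal-protein genes (log scale), mitochondrially encoded genes and genes spanning at least 100 kb, for CNT and 3CK. Right of the dashed threshold at 300, ribosomal-protein medians are 1.39% and 1.32% against 16.4% and 13.9% to its left.

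The threshold cut through a gradient. With 100 to 200 MALAT1 UMIs per 10000 the median ribosomal-protein share was 13.0% in CNT (137 barcodes) and 8.92% in 3CK (84). At 200 to 300 it was 2.64% (79) and 3.18% (53), at 300 to 400 it was 2.27% (47) and 3.00% (38), and from 600 to 1000 it was 1.08% (46) and 0.973% (36). The largest of these steps lay below the rule's threshold. The 10 barcodes just inside it had a median of 307 MALAT1 UMIs per 10000 in CNT and 311 in 3CK, with 6.66% and 6.12% ribosomal-protein UMIs. The 10 just outside had 288 and 291, with 5.22% and 2.31%. At 1000 or more, 14 CNT barcodes had a median mitochondrial share of 7.06% and 21 barcodes of 3CK had 1.69%.

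Across the whole transcriptome, 12656 genes reached 10 CPM (UMIs scaled to a common library total) on either side of either library. Of these, 5271 (41.6%) were at least 2-fold higher and 1783 (14.1%) at least 2-fold lower in MALAT1-rich than in remaining barcodes of both libraries. The median log2 ratio over all of them was 0.85 in CNT and 0.79 in 3CK. This split depends on the scaling: when edgeR's TMM factors (trimmed mean of M values) replace total UMIs, every ratio moves by -1.20 in CNT and -1.10 in 3CK, 1763 genes were higher and 4183 lower. Ratios below are on total UMIs and are a description, since the same cells' MALAT1 chose the group.

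Nuclear noncoding RNAs other than MALAT1 were higher, taken over the whole group. All 7 measured members of a list of 8 were at least 2-fold higher in both libraries, against 41.6% of all genes. Their median log2 ratios were 3.03 and 2.85. With TMM all 7 stayed above 0 and 4 were at least 2-fold higher in both libraries, against 1763 of 12656 genes. NEAT1 (chr11:65422774-65445540, GRCh38) stood at 5777 CPM in the CNT group against 682 in the remaining barcodes, and at 5763 against 675 in 3CK. MALAT1 (chr11:65497640-65508073) stood at 55755 against 3538 and 57277 against 3337. SNHG14, the long host transcript of the Prader-Willi locus, was at 736 against 129 CPM and 659 against 91.5. FTX was at 151 against 17.1 and 112 against 12.5, and KCNQ1OT1, an imprinted antisense RNA within KCNQ1, at 359 against 33.8 and 101 against 11.3. MEG3, another imprinted RNA, was at 1007 against 123 CPM in CNT and 99.9 against 39.2 in 3CK. Of its 6294 UMIs in the CNT group, 6192 came from the barcodes rich in mesenchymal markers. In those rich in epithelial markers the group held 6 and 10 UMIs of MEG3. There it was at 4.10 against 6.22 CPM in CNT and 2.55 against 2.13 in 3CK. MIAT was not measurable, with 3 and 8 UMIs in the MALAT1-rich sums. The sources used here do not give whether the counting used strand. If it did not, counts of an antisense RNA such as KCNQ1OT1 and of its partner gene cannot be told apart.

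Transcripts of splicing regulators that reside in speckles were higher as well, 10 of 15 by at least 2-fold in both libraries, against 41.6% of all genes, with medians of 1.49 and 1.44. NKTR, a cyclophilin of the speckle, stood at 336 against 44.1 CPM in CNT and 332 against 42.0 in 3CK, and CCNL1, a cyclin of the splicing machinery, at 107 against 22.2 and 178 against 26.9. The speckle scaffold gene SON had log2 ratios of 0.98 and 1.03 and SRRM2 of 0.38 and 0.16. With TMM the list medians were 0.30 and 0.33, against -0.35 and -0.32 over all genes. In both libraries 9 of 15 were then above 0 and 2 of 15 at least 2-fold higher. The latter is near the share of all genes with TMM (1763 of 12656). SON lay at -0.22 and -0.07 and SRRM2 at -0.82 and -0.94.

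Of the 13 mitochondrially encoded messenger RNAs, 12 were at least 2-fold higher in both libraries, against 41.6% of all genes, with medians of 1.65 and 1.40. The exception was MT-CO2, a cytochrome c oxidase subunit and the second most abundant RNA of the group, which stayed under 2-fold in 3CK. It was at 16984 against 8354 CPM in CNT and 13746 against 7287 in 3CK. MT-ND6, the only one encoded on the opposite strand, had the largest ratios, 163 against 34.0 CPM and 147 against 26.9. With TMM the list medians were 0.45 and 0.30 and 11 of 13 stayed above 0. Only 1 of 13 was then at least 2-fold higher, a smaller share than that of all genes (1763 of 12656). MT-CO2 went to -0.17 and -0.19 and MT-CO1 to -0.02 and -0.10.

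Genes were also named by size of ratio among those at 50 CPM or more on at least 1 side in each library. The 15 highest relative to the remaining barcodes in both libraries were MALAT1 and 14 others, most of them long genes or long noncoding RNAs. A gene scarce in the remaining barcodes could pass that filter only through the MALAT1-rich side. AQP4-AS1 did so, at 60.0 against 4.67 CPM in CNT and 53.0 against 3.62 in 3CK. KHDRBS2, an RNA-binding splicing regulator spanning 606 kb, stood at 514 against 52.8 CPM in CNT and 105 against 6.87 in 3CK. TTN, the giant muscle protein titin, was at 323 against 34.8 and 52.5 against 4.96 CPM. LRRTM4, a synaptic adhesion protein, was at 175 against 13.5 and 67.7 against 5.67 CPM, and LINC01473 at 166 against 16.8 and 164 against 13.3. The others were AQP4-AS1, NRG3, MIR34AHG, LINC01376, KCNQ1OT1, AC074237.1, AC073114.1, AC011029.1, AF117829.1 and AL008633.1.

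The length of a gene, which the rule did not use, ordered these ratios. The sources used here do not say whether intronic reads were counted. Genes spanning under 10 kb had median log2 ratios of -1.23 in CNT and -1.32 in 3CK (1963 genes), and 1033 of them (52.6%) were at least 2-fold lower in both. Genes of 10 to 50 kb had medians of 0.20 and 0.17 (4963 genes), and those of 50 to 100 kb 1.25 and 1.27 (2362). At 100 to 500 kb the medians were 2.04 and 2.01, with 2464 of 2986 genes (82.5%) at least 2-fold higher. Above 500 kb they were 2.70 and 2.59, with 328 of 347 (94.5%) higher and 0 lower. Across 12621 genes, which are not independent replicates, Spearman's rho between span and ratio was 0.73 in CNT and 0.71 in 3CK.

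**Figure D2:**
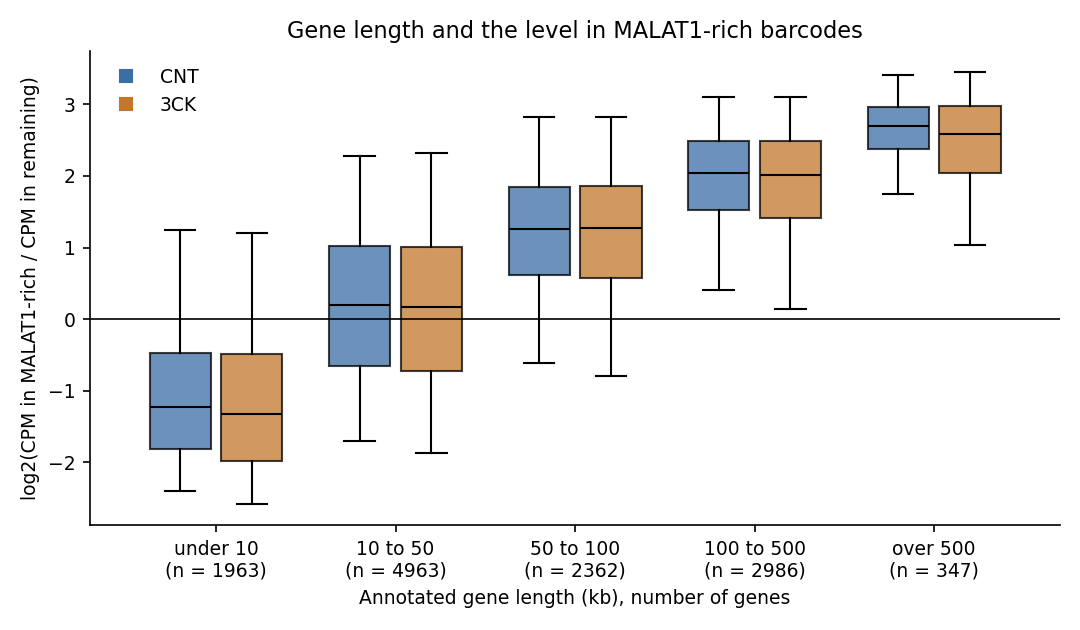
The vertical axis is the log2 ratio of CPM, MALAT1-rich over remaining barcodes of the same library, for genes grouped by the span of the gene in kb, with CNT and 3CK side by side; boxes are quartiles, centre lines medians and whiskers the 5th and 95th percentiles over genes. Medians climb from -1.23 and -1.32 under 10 kb to 2.70 and 2.59 above 500 kb.

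The order was the same at each level of abundance, with a limit for scarce genes. Among genes at 50 CPM or more in the remaining barcodes the medians were -1.71 and -1.82 under 10 kb (856 genes) and 1.56 and 1.65 at 100 kb or more (520). Among genes at 10 to 50 CPM there they were -0.96 and -0.97 (859) and 2.04 and 2.05 (1579). Among genes under 10 CPM there they were 0.70 and 0.66 (248) and 2.44 and 2.22 (1234). Genes of that last class entered mainly by reaching 10 CPM in the MALAT1-rich sums, so the filter itself favoured positive ratios among them. In number of UMIs, the median MALAT1-rich barcode held 11922 from genes of at least 100 kb in CNT and 14530 in 3CK, against 6168 and 7995.5, so that it held more of them from a smaller total. From genes under 10 kb it held 2407 and 3985, against 27158 and 40285. Long noncoding RNAs were at least 2-fold higher in 924 of 1203 cases (76.8%) and protein-coding genes in 4325 of 11423 (37.9%).

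Short, abundant messenger RNAs of the cytoplasm made up the low end. The counts that follow are of genes at least 2-fold lower in both libraries, as were 14.1% of all genes. Of 83 measured ribosomal-protein genes 82 were at least 2-fold lower in both libraries, with medians of -1.89 and -2.36. RPS26 stood at 193 against 1037 CPM in CNT and 164 against 1002 in 3CK. All 18 nuclear-encoded respiratory chain genes were lower, with medians of -2.01 and -2.27, among them the complex IV-associated NDUFA4 at 200 against 1132 and 132 against 781 CPM. All 16 genes of small cytosolic proteins were lower (-2.08 and -2.20), among them the glycolytic enzyme GAPDH at 493 against 2614 and 450 against 3048 CPM. Of 15 translation factor genes 12 were lower (-1.51 and -1.85). Of 14 genes for histones and other chromatin proteins, whose messages are translated in the cytoplasm although the proteins are nuclear, 11 were lower (-1.47 and -1.51), and H2AFZ was at 88.3 against 481 and 72.6 against 524 CPM. TMM moves every ratio by -1.20 in CNT and -1.10 in 3CK, so with it these 5 lists could only lie lower, and it is no separate check on them.

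Among the 15 lowest by ratio were also the smooth muscle proteins TAGLN (28.0 against 216 CPM in CNT, 28.9 against 210 in 3CK) and MYL9, the fatty acid-binding protein FABP1 (92.0 against 804, 17.8 against 120), the acute-phase protein SAA2 (5.28 against 73.3, 153 against 1024), the metallothionein MT1X, the gut peptide NTS, and PAGE2, ATP6V1F, LAGE3, DUSP23, HIST1H4C and UQCR10. SAA2 is nearly identical to SAA1, and counts of the pair can be split between them.

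The hepatic plasma protein list, 16 genes of the liver-type secretory programme that these organoids also express, was low. In both libraries 9 of 16 were at least 2-fold lower, against 14.1% of all genes, with medians of -2.29 in CNT and -1.21 in 3CK. TTR, the thyroid hormone carrier, stood at 5242 CPM in the CNT group against 52286 in the remaining barcodes, and at 4377 against 16273 in 3CK. It was nevertheless found in every MALAT1-rich barcode after thinning to 10000 UMIs, 159 of 159 and 155 of 155. APOB, the longest messenger RNA of that list, had ratios of 0.15 and 0.75.

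The second question was whether MALAT1-rich barcodes carried the cytokine response, measured as 3CK against CNT within the group. Of 12012 genes at 10 CPM or more, 800 (6.66%) were at least 2-fold higher and 1339 (11.1%) at least 2-fold lower in 3CK, with a median log2 ratio of -0.07 over all genes (0.06 with TMM, a shift of 0.13). In the remaining barcodes 630 of 9902 genes (6.36%) were higher and 766 (7.74%) lower, with a median of -0.02. The 3CK group was the deeper one, and had slightly lower ribosomal-protein and mitochondrial shares. The part of these differences in the gene ratios was not tested.

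The IFN-γ response list was higher as a whole, 28 of 28 genes by at least 2-fold against 6.66% of all genes. Its median log2 ratio, with the 2 genes at 0 UMIs in the CNT group set to 3 UMIs, was 4.22, against 4.33 in the remaining barcodes, where 28 of 28 were higher too. Summed over the list, the level went from 694 to 11066 CPM in the group and from 862 to 15062 in the remaining barcodes. Thinned to 10000 UMIs, the median MALAT1-rich barcode held 6 UMIs of the list in CNT and 92 in 3CK (quartiles 65.5 and 126), and 154 of 155 barcodes of 3CK lay above the 99th percentile of the CNT group, 28.4 UMIs. In the remaining barcodes the medians were 6 and 128.

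Single genes of the list differed in how their ratio compared with that of the remaining barcodes. GBP5, a guanylate-binding protein of host defence, had 1 UMI in the CNT group and 4907 in 3CK (605 CPM), a log2 ratio of 11.88 with a counting interval of 9.41 to 17.19, against 8.82 in the remaining barcodes, which reached 496 CPM. IDO1, the enzyme that degrades tryptophan, had 3 and 2856 UMIs (352 CPM), a ratio of 9.52 (7.97 to 11.80), against 11.51. CXCL10, a T cell chemokine, had 0 UMIs in CNT and 2248 in 3CK (277 CPM), at least 577-fold higher by a floor of 3 UMIs (a log2 ratio of at least 8.87 by the exact counting interval), while the remaining barcodes of 3CK reached 2067 CPM. CXCL11, another ligand of the same receptor, had 1 and 669 UMIs, a ratio of 9.01 (6.53 to 14.32).

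The signalling and antigen-presentation members were detected in CNT as well. IRF1, a transcription factor of the interferon response, went from 22.1 to 328 CPM, a ratio of 3.89. ISG15, the ubiquitin-like modifier and the most abundant gene of the list, went from 102 to 2155 CPM (4.40, 4.29 to 4.52), and from 418 to 5076 in the remaining barcodes (3.60). NLRC5, the transactivator of MHC class I genes, went from 8.48 to 255 CPM, and from 2.22 to 48.1 in the remaining barcodes. PARP14, a mono-ADP-ribosyltransferase whose values were seen before it was chosen for mention, went from 157 to 1941 CPM, and from 43.7 to 409. SOCS1, the feedback inhibitor of JAK kinases, had the smallest ratio of the list, 1.09 (18.2 to 38.7 CPM) against 2.34 in the remaining barcodes.

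The promoters of CXCL10 and PARP14 are shown because these 2 genes of one response stood on opposite sides of the group's ratio to the remaining barcodes in 3CK, 277 against 2067 CPM and 1941 against 409. The sequences are the 250 bases before the RefSeq start (GRCh38.p14), written along the gene's strand. Capitals mark the match to GAAA, any 2 bases and GAAA again, the core of the interferon-stimulated response element, searched on both strands. The CXCL10 window is chr4:76023498-76023747 on the minus strand, with the match starting 221 bases before the start, and the PARP14 window is chr3:122680589-122680838 on the plus strand, with the match 29 bases before it.
CXCL10: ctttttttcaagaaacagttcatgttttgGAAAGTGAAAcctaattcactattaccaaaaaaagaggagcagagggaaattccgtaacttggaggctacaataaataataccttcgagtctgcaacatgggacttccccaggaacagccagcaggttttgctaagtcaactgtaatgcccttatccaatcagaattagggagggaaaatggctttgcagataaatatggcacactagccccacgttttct
PARP14: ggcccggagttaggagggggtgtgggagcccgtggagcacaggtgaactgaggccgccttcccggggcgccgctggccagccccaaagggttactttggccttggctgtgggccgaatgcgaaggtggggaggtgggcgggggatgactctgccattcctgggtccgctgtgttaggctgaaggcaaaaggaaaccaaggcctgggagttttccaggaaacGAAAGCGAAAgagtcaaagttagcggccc
The letters occur in 1014 of 27305 genes of the promoter table (3.71%), and in 14 of the 52 response genes found in it (26.9%). A second motif, TTCNNNGAA, the core of the gamma-activated sequence, occurs in 2208 genes of the table (8.09%) and in 12 of the 52 (23.1%), PARP14 among them. A match in these letters is a description of the window and not a measured binding site.

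The counts of the next lists are of genes at least 2-fold higher or lower in 3CK, as were 6.66% and 11.1% of all genes. MHC class I genes were higher in 8 of 8 cases, with a median of 3.73 against 3.47 in the remaining barcodes. B2M, the light chain common to class I molecules, went from 608 to 4293 CPM (2.82), and from 1489 to 9809 in the remaining barcodes (2.72). TAP2, a subunit of the peptide transporter, went from 7.68 to 205 CPM (4.74). HLA-F had 4 UMIs in CNT and 1634 in 3CK, giving a ratio of 8.30 (6.94 to 10.18) against 6.52, with the reserve that HLA genes resemble one another and can share reads. MHC class II genes were low in both, with 1 of 4 measured genes higher, CD74, the invariant chain, from 4.32 to 27.7 CPM.

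NF-κB targets were higher in 19 of 25 cases and lower in 1, with a median of 2.02, against 21 of 25 and 3.04 in the remaining barcodes. IL32 went from 60.3 to 851 CPM (3.82), and from 332 to 3387 in the remaining barcodes (3.35). CSF3, the granulocyte growth factor, had 1 UMI in CNT and 329 in 3CK, giving a ratio of 7.99 (5.50 to 13.29). NFKB1, the p50 precursor, was at 117 and 123 CPM, a ratio of 0.07 (-0.07 to 0.21), and CCL2, a monocyte chemokine, at 5.60 and 11.2 CPM, a ratio of 1.00 against 3.04 in the remaining barcodes. The adhesion molecule VCAM1 had 43 UMIs in CNT and 3 in 3CK, giving a ratio of -4.22 (-6.55 to -2.57) against -0.07. In UMIs per thinned barcode the NF-κB list went from 6 to 35 in the group and from 5 to 69 in the remaining barcodes.

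Regulators of NF-κB and STAT signalling, receptors and kinases among them, were higher in 6 of 14 cases and lower in 1. Of all genes 6.66% and 11.1% were. The list median was 0.66 against 0.86. JAK2, the IFN-γ receptor kinase, went from 79.4 to 277 CPM (1.81), and STAT3 from 161 to 427 (1.40). TNFRSF1B, a TNF receptor, went from 5.12 to 27.1 CPM, and the IL-1 receptor IL1R1 from 107 to 19.1 (-2.48). Effectors of the inflamed mucosa were higher in 14 of 15 cases, with a median of 3.78 against 3.39. DUOX2, the epithelial hydrogen peroxide generator, went from 97.3 to 859 CPM (3.14), and from 69.3 to 356 in the remaining barcodes (2.36). LCN2, an iron-chelating antimicrobial protein, went from 5.28 to 346 CPM (6.03). PIGR, the epithelial immunoglobulin transporter, had 0 UMIs in CNT and 1177 in 3CK, at least 302-fold higher by a floor of 3 UMIs (a log2 ratio of at least 7.94 by the exact counting interval). PI3, an elastase inhibitor, was the exception, at 1.92 and 1.11 CPM. Apoptosis genes were higher in 10 of 16 cases and lower in 0, with a median of 1.32 against 1.29. TNFSF10, which encodes the death ligand TRAIL, went from 3.84 to 196 CPM and the initiator caspase CASP8 from 29.9 to 168.

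The 15 largest ratios by rule were GBP5, IDO1, CXCL10, CXCL11, HLA-F, PIGR, SLC6A14, IFI44L, TNIP3, PLAAT4, CD274, BATF2, OAS2, LINC02605 and LCN2. CD274, which encodes the checkpoint ligand PD-L1, went from 5 UMIs to 578 (6.48, 5.25 to 8.11). PLAAT4, a phospholipase-like growth suppressor, went from 69 UMIs to 8705, or 1073 CPM (6.60), and BATF2 from 2.24 to 187 (6.38).

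The 4 response lists differed in how many barcodes of the 3CK group passed the 99th percentile of the CNT group in thinned UMIs. Beside the 154 of 155 for the IFN-γ list, 90 passed for NF-κB targets (58.1%), 82 for MHC class I (52.9%) and 34 for inflamed mucosa effectors (21.9%). The remaining barcodes of 3CK were set against the 99th percentile of the remaining barcodes of CNT. There 93.0% passed for the IFN-γ list, 73.3% for NF-κB targets, 88.8% for MHC class I and 18.4% for mucosa effectors. The cutoffs in that order were 28.4, 31.5, 60.6 and 37.5 UMIs for the group, and 45, 46, 131 and 79.2 for the remaining barcodes. The shares of the group and of the remaining barcodes thus do not compare the sizes of their responses. Median UMIs in 3CK were 92, 35, 65 and 22 in the group, against 128, 69, 230.5 and 29. After thinning, GBP5 was detected in 0 of 159 CNT barcodes of the group, which allows a share of up to 2.29% with a UMI at that depth (exact binomial, 0.629% unthinned), and in 140 of 155 of 3CK (90.3%, and 95.5% unthinned). In the remaining barcodes it was detected in 84.4% in 3CK. DUOX2 was found in 34.6% of the CNT group and 90.3% in 3CK. CXCL10 was found in 0% and 56.1% (90.3% unthinned), against 73.0% of the remaining barcodes of 3CK, and LCN2 in 1.26% and 37.4%. PTPRC, a pan-leukocyte gene, was found in 0.629% and 0.645%, but it was scarce in the remaining barcodes too (0.304% and 0.351%) and gives no background share for transcripts as abundant as CXCL10. The part of free RNA in these shares was not tested.

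**Figure D3:**
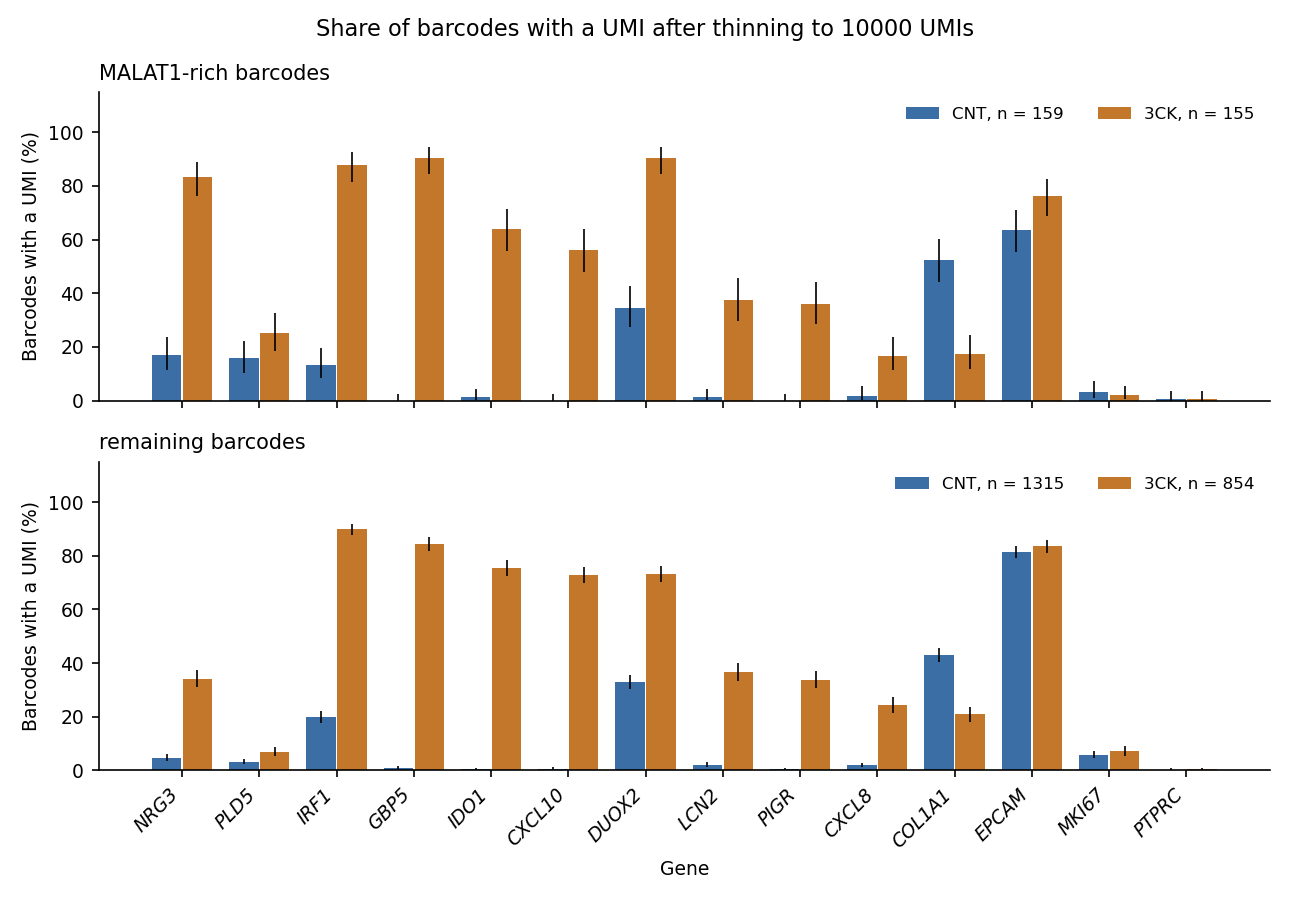
The vertical axis is the percent of barcodes with at least 1 UMI of a gene after thinning each barcode to 10000 UMIs, for 14 genes along the horizontal axis, with MALAT1-rich barcodes in the upper panel, remaining barcodes in the lower panel and a bar each for CNT and 3CK; error bars are exact binomial 95% intervals. GBP5 is at 0% in the CNT group and 90.3% in the 3CK group, and PTPRC is under 1% in all 4.

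Gene length also ordered the response genes. For 72 genes of the 4 response lists (IFN-γ, MHC class I, NF-κB targets, inflamed mucosa) at 10 CPM or more in 3CK, Spearman's rho between span and the ratio of MALAT1-rich to remaining barcodes in 3CK was 0.75. The 34 genes under 10 kb had a median of -1.29, and 33 of them were below 0. The 29 genes of 10 to 50 kb had a median of 0.14, and the 9 of 50 kb or more 0.88. CXCL10 spans 2.38 kb and PARP14 about 50 kb. The response genes thus followed the order seen over all genes.

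**Figure D4:**
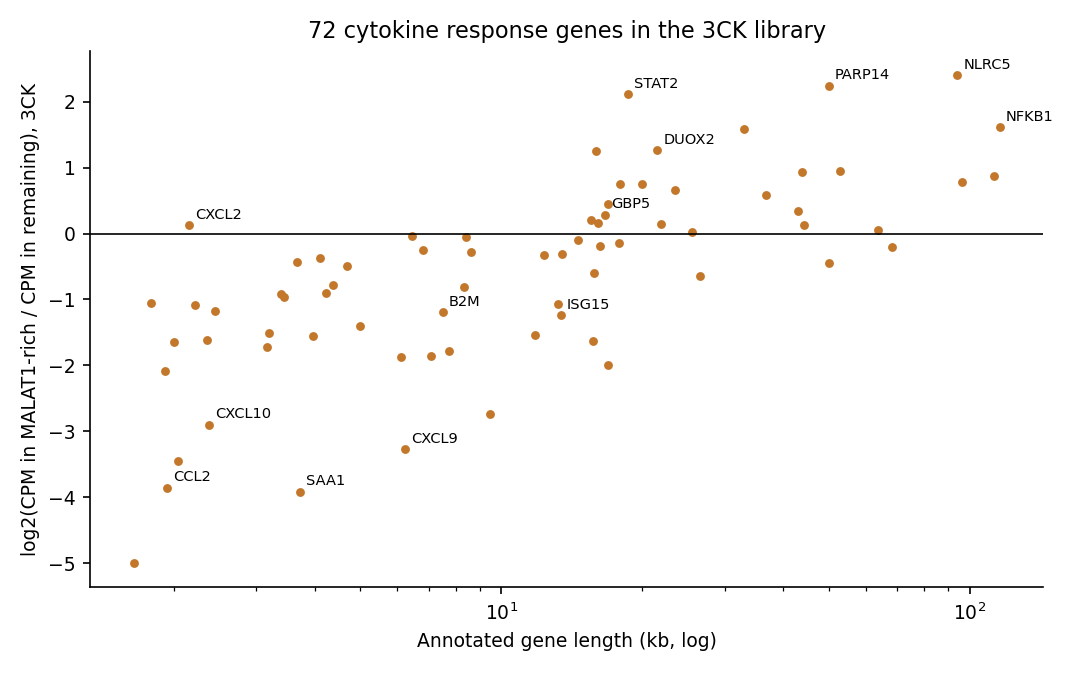
Each point is 1 of 72 cytokine response genes in 3CK; the horizontal axis is gene span in kb on a log scale and the vertical axis the log2 ratio of CPM in MALAT1-rich over remaining barcodes. The 34 genes under 10 kb have a median of -1.29 and the 9 genes of 50 kb or more a median of 0.88.

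Genes lower in 3CK within the group were led by collagens and other connective tissue genes. Of 15 mesenchymal markers 14 were at least 2-fold lower, against 11.1% of all genes, with a median of -3.08 against -1.14 in the remaining barcodes. COL1A1 went from 1698 to 46.1 CPM (-5.20), and from 633 to 118 in the remaining barcodes (-2.42). COL3A1 went from 1897 to 38.8 CPM (-5.61), and from 688 to 177 (-1.96). POSTN, a matrix protein of fibroblasts, went from 196 to 2.84 CPM (-6.11 against -1.42), and HGF, hepatocyte growth factor, from 104 to 1.85 (-5.81 against -2.82). Summed over the list, the level was 9107 and 1675 CPM in the group.

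The mix of marker ranges differed between the libraries beside these values. On the log2 ratio of epithelial markers without keratins to mesenchymal markers, per 10000 UMIs plus 1, 33 of the CNT group (20.8%) and 77 of the 3CK group (49.7%) lay above 1, and 64 (40.3%) and 20 (12.9%) lay below -1. In the remaining barcodes the shares above 1 were 23.2% and 38.8%. Within the epithelial range the mesenchymal list had a median of -0.87 in the group and -0.92 in the remaining barcodes, and within the range below -1, which was cut on these genes, -2.16 and -0.85. The IFN-γ list had 4.69 and 5.01 in the first range and 3.23 and 3.45 in the second. The IFN-γ list was thus high within each range, and the mesenchymal list differed between the group and the remaining barcodes by more in the range below -1 than in the epithelial range. Each range is an interval on a score and names no cell type.

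The other genes with the smallest ratios included CUBN, an absorptive receptor, from 274 to 7.64 CPM (-5.16). They also included ZNF804B, TAFA4, AC021351.1, BRINP3, UNC5C, NOX4, PTPRT, SULF1 and COL15A1. RFX6, a transcription factor of endocrine cells, went from 55.0 to 1.85 CPM (-4.90), against -3.63 in the remaining barcodes.

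A few hepatic and goblet genes differed in direction between the group and the remaining barcodes. The hepatic list had a median of -0.05 in the group, with 4 of 16 genes at least 2-fold higher and 1 lower. Of all genes 6.66% were higher and 11.1% lower there. In the remaining barcodes its median was -1.25, with 10 of 16 lower, against 7.74% of all genes. APOC3, a lipoprotein component, went from 136 to 283 CPM in the group (1.06) and from 1905 to 882 in the remaining barcodes (-1.11). RBP4, the retinol carrier, went from 204 to 552 CPM (1.44) and from 1935 to 1538 (-0.33). SERPINA1, α1-antitrypsin, went from 103 to 243 CPM (1.24) and from 705 to 612 (-0.21). ZG16, a goblet cell lectin, went from 128 to 297 CPM (1.21) and from 1068 to 617 (-0.79). TTR (-0.26 and -1.68) and APOB (-1.65 and -2.25) had negative ratios in both, as had the goblet genes REG4 (-4.90 and -4.81) and TFF3 (-2.91 and -1.64), and the mucin MUC1 had positive ones (3.27 and 3.51). The goblet list had a median of 1.21 in the group and -0.56 in the remaining barcodes, but of -0.42 and -1.47 within the epithelial range. For APOC3, RBP4, SERPINA1 and ZG16 the remaining barcodes stood above the group in both libraries. Within the epithelial range RBP4 had ratios of 1.49 in the group and 0.02 in the remaining barcodes, and SERPINA1 1.11 and 0.11. The signs of RBP4 and SERPINA1 thus no longer differed there. APOC3 (0.60 and -1.45) and ZG16 (0.76 and -0.60) kept opposite signs in that range. Within the mesenchymal range RBP4 (2.44 and -0.79) and SERPINA1 (1.78 and -0.40) had opposite signs again.

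NRG3, a ligand of the receptor ERBB4 spanning 1112 kb (chr10:81875194-82987179), was both high in the group and higher in 3CK. It went from 176 to 1771 CPM in the group, a ratio of 3.33 (3.24 to 3.42), and from 8.18 to 175 in the remaining barcodes, a ratio of 4.42. After thinning it was found in 17.0% and 83.2% of the group (20.8% and 88.4% unthinned), and in 4.64% and 34.2% of the remaining barcodes. Within the epithelial range it went from 543 to 2054 CPM in the group, and within the mesenchymal range from 53.1 to 1308. PLD5, a member of the phospholipase D family, went from 39.4 to 80.9 CPM and was found in 15.7% and 25.2% of the group, against 3.27% and 6.79% of the remaining barcodes. NRG3 and PLD5 were named as marks of these barcodes, and at that depth neither was found in most of the CNT group.

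The genes whose log-normalised level most closely followed MALAT1 across the 1474 CNT and 1009 3CK barcodes were NEAT1 (Pearson's r 0.85 and 0.89), ZFAND3 (0.82 and 0.84), PTK2 (0.82 and 0.86), IGF2BP2 (0.82 and 0.85) and JMJD1C (0.82 and 0.85). All points of 1 library share its depth range and its composition, so these are descriptions. Within the MALAT1-rich group alone the relation to MALAT1 was weaker. Spearman's rho with the share of UMIs in genes over 500 kb was 0.90 over all barcodes of each library, but 0.16 and 0.15 within the group.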

How the data were processed

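Single-cell RNA was measured in 1 untreated and 1 cytokine-treated library. What the authors deposited are raw UMI counts for each gene in each barcode. Per the file headers, Cell Ranger 7.1.0 made them. The build was GRCh38 per the submitters' processing notes. The gene annotation and the treatment of intronic reads were not given in the sources used here, and both bear on every statement about gene length. Both libraries list 36601 genes, of which 36366 IDs (99.4%) were found in GENCODE, the source of spans and coordinates. XIST, TSIX and Y-linked genes (112) were left out.

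The MALAT1-rich group, the 27 gene lists and the comparisons were chosen with earlier results of these data known. UMIs were summed over the barcodes of a group and scaled to CPM by their total. A gene entered a comparison at 10 CPM, and a list member at 1 CPM in either sum. A sum of 0 UMIs was set to 3 UMIs, and no ratio was formed where both sums had 3 or fewer. Ratio intervals come from the exact binomial interval of the 2 counts (95%), and PCR and capture were not modelled. Because each group is 1 library, no test was made and no p-value is given. Single genes were named by rule: the 15 largest and 15 smallest ratios at 50 CPM, the 8 largest and smallest differences in response, the extremes and the most abundant gene of each list, the 10 most abundant genes, and the 5 that followed MALAT1 most closely. IRF1 and PARP14 were named outside that rule after their values were seen. One gene selected by the rule is not reported here. Shares of barcodes with a UMI were computed after thinning each barcode to 10000 UMIs, and every barcode was deep enough. Doublets were scored with Scrublet in scanpy 1.11.5 and were removed only in an alternative. Alternatives also covered the thresholds, the level filter, TMM factors (edgeR 4.0.16), the totals, equal weight of barcodes and the marker ranges. Promoters came from a RefSeq table (GRCh38.p14). The functions were tested on simulated data. Python 3.11.15, numpy 2.4.6, scipy 1.17.1 and pandas 2.3.3 were used.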

Additional observations from a re-analysis of the deposited data

Results flagged for a closer look

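Genes were ranked by their difference in response among those at 50 CPM or more in the higher library, in the group and in the remaining barcodes alike, and of the 8 at either end those whose ratio of 3CK to CNT had opposite signs in MALAT1-rich and in remaining barcodes were picked out by that difference in direction. The difference of the log2 ratios was 2.17 for APOC3, 2.00 for ZG16, 1.84 for APOA4, 1.77 for RBP4 and 1.44 for SERPINA1. Each group is 1 library, so the differences were not tested. Within the epithelial range the signs still differed for APOC3, ZG16 and APOA4 (0.33 and -2.06), but not for RBP4 and SERPINA1. Below that level, named genes with opposite signs included FABP2 (0.86 and -3.30) and AHSG (1.76 and -0.61), with differences of 4.15 and 2.36. All 5 genes above that level were lower in the group than in the remaining barcodes of both libraries, with APOA4, an apolipoprotein of enterocytes, at 694 and 951 CPM in the group against 3917 and 1497.

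Barcodes outside the limits of the rule also held MALAT1 at 300 or more UMIs per 10000. Under 10000 UMIs there were 62 in CNT (5.44% of 1139) and 22 in 3CK (5.43% of 405). Above 20% mitochondrial UMIs there were 20 in CNT (44.4% of 45) and 5 in 3CK (17.9% of 28). They entered no comparison.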

How the results depend on the processing

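No paired analysis was possible because each group is 1 library. The share of barcodes called MALAT1-rich followed the limits chosen. It was 16.1% in CNT and 20.6% in 3CK at a MALAT1 threshold of 200, 7.60% and 11.6% at 400, and 4.07% and 5.65% at 600. With at most 10% mitochondrial UMIs it was 7.28% and 12.7%, with at least 20000 UMIs 9.07% in CNT, and it was 9.76% and 18.9% in the epithelial but 11.9% and 7.81% in the mesenchymal range, where 3CK was the lower. The median mitochondrial share was 4.77% in CNT and 3.78% in 3CK under the 10% limit, 10.4% in CNT in the mesenchymal range and 3.84% in 3CK at a threshold of 600.

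Against the remaining barcodes, 2749 genes were higher with a filter of 50 CPM, where fewer genes were tested, 10641 with no filter, and 1763 with TMM, which called 4183 lower. For 3CK over CNT within the group, 436 genes were higher and 480 lower at 50 CPM, 2066 and 4138 with no filter, and 1458 were higher in the mesenchymal range. The IFN-γ median was 4.67 at a threshold of 400, 4.69 in the epithelial range and 3.23 in the mesenchymal range.

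The 42 list medians that were 1 or more in size were followed, and 572 of their 579 values under the alternatives kept the sign. The other 7 were, for 3CK over CNT in the group, enteroendocrine markers at 0.27 in the mesenchymal range and goblet markers at -0.028 at a threshold of 400 and -0.42 in the epithelial range. Against the remaining barcodes they were goblet markers in 3CK at 0.27 in the mesenchymal range, and, in the epithelial range, mesenchymal markers in CNT at -0.0097, smooth muscle markers in 3CK at 1.04 and leukocyte markers in CNT at 0.20. Smaller medians were not followed in this way, and some turned in the marker ranges: 3CK over CNT in the group, the hepatic list was at 1.05 in the mesenchymal and epithelial markers at -0.46 in the epithelial range, and against the remaining barcodes of 3CK, epithelial markers were at 0.36 and mucosa effectors at 0.56 in the mesenchymal range. The causes were not tested. The sums of the group are small, so that 3 UMIs are 0.480 CPM in CNT and 0.370 in 3CK, and genes near those levels rest on few UMIs.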

Other observations

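Cell cycle genes were low in the MALAT1-rich barcodes. Of 16, 6 were at least 2-fold lower than in the remaining barcodes of both libraries, against 14.1% of all genes, with medians of -0.91 in CNT and -1.56 in 3CK, and 0 were higher. With TMM, which moves every ratio down, 14 of the 16 were at least 2-fold lower, against 4183 of 12656 genes. CDK1, the mitotic kinase, was at 5.28 against 16.4 CPM in CNT and 1.48 against 18.5 in 3CK. MKI67, a proliferation marker, was found in 3.14% and 1.94% of the thinned barcodes of the group, against 5.86% and 7.14% of the remaining ones. Immediate-early and heat shock genes, which can respond to dissociation, had medians of -0.16 and -0.28. FOSB, at 18.1 against 3.54 CPM and 5.55 against 1.16, was the 1 of 16 at least 2-fold higher in both libraries. Unfolded protein response genes had medians of -0.59 and -0.34. ASNS, a gene of few UMIs at 2.40 against 0.496 and 5.18 against 1.20 CPM, was the 1 of 12 higher by as much. Of all genes 41.6% were. With TMM 15 of the 16 and 11 of the 12 lay below 0 in both libraries, where the medians over all genes were themselves -0.35 and -0.32.

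Leukocyte markers summed to 40.8 CPM in the CNT group and 45.4 in 3CK, against 193 and 194 in the remaining barcodes, endothelial markers to 55.2 and 30.1 against 50.5 and 45.2, and neural and glial markers to 286 and 225 against 258 and 333. Of the neural and glial list SYT1, a synaptic vesicle protein gene spanning 588 kb, was at 124 against 15.4 CPM and 97.4 against 18.2, whereas TUBB3, of 17.4 kb, was at 96.0 against 207 and 81.5 against 253. Among epithelial markers the same contrast appeared between GRHL2, a transcription factor gene of 177 kb, at 68.6 against 11.6 and 74.1 against 10.8 CPM, and PHGR1, of 5.40 kb, at 98.9 against 894 and 50.6 against 246.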
